A study of Rattus norvegicus with 18 samples.

Results

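Denervation-responsive and myogenic regulator genes were followed in rat gastrocnemius RNA across age and diet. The 7 genes Chrna1, Myog, Myod1, Ncam1, Runx1, Gadd45a and Cdkn1a were selected by Ensembl identifier from the 32883 identifiers of the deposited count table. All 7 lay on the chromosome given for them, and all 7 were among the 14646 genes that passed the filter on low counts. The muscle came from male Brown Norway rats in 3 groups of 6, and the labels name no transgene or deleted allele. Aged means old in the figures. Young rats fed ad libitum (AL) were killed at 6 months of age, aged rats fed AL at 28 months, and aged rats under caloric restriction (CR) also at 28 months. Daily intake of the CR rats had been held at 55% of AL intake from 2 months of age, and all 3 groups ate the same diet. The CR rats were fed within a limited daily period, while AL rats could eat at any hour. The amount eaten and its timing therefore cannot be told apart. There was no young CR group, so restricted and unrestricted rats can be compared only at 28 months.

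Muscle fibres are kept in their adult state by the motor nerve. When nerve contact or electrical activity is lost, fibre nuclei outside the synapse are known to resume transcription of acetylcholine receptor subunits and of the adhesion molecule NCAM. The transcription factor myogenin is a known driver of this response and binds E-boxes, the sequence CANNTG, together with a ubiquitous partner protein. Runx1, Gadd45a and Cdkn1a (p21) are also known to rise in denervated muscle. MyoD, the factor related to myogenin that Myod1 encodes, is known for committing cells to the muscle lineage.

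Fragments counted per library ranged from 17335401 to 27432767. Values are CPM, counts per 1000000 after scaling by the trimmed mean of M-values (TMM). On the first principal component of log2 CPM, which held 30.4% of the variance, rat 8 (aged, AL) lay at -108.9 and library 8828 (aged, CR) at -75.5, with no other library under -8.25. Rat 8 also had the highest scaling factor of the 18 libraries, 1.44. The tests, group levels of aged rats fed AL and correlations between members are also given without rat 8 or without both libraries. The similarity ranks over all genes and the correlations after removal of group means are given only with them. Library numbers form a separate block for each group, so any handling in those blocks and the group cannot be told apart. The files pair no identifiers with symbols, and the muscle, Schwann cell, satellite cell and liver markers that would check the tissue were not analysed here. Myod1 and Myog, which are known as muscle-specific, had at least 351 and 153 counts in every library. In RNA from whole muscle, fewer cells of a type and less RNA per cell cannot be told apart.

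The promoters of Chrna1 and Myog are shown because the patterns of these genes over the libraries were correlated (Pearson's r of log2 CPM 0.899) and because E-boxes upstream of Chrna1 are known myogenin and MyoD targets. The sequences are RefSeq's for assembly GRCr8, 250 bases before to 50 bases after the start, written 5′ to 3′ on the gene's strand with CANNTG in capitals. That motif reads the same on both strands, so a single search covers both.
Chrna1, chr3:78877304-78877603, minus strand: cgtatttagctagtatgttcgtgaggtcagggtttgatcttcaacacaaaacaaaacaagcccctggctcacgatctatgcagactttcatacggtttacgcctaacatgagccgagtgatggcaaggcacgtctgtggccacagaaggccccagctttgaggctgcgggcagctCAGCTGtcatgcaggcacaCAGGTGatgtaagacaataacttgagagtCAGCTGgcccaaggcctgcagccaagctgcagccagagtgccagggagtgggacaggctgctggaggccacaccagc
Myog, chr13:48297226-48297525, plus strand: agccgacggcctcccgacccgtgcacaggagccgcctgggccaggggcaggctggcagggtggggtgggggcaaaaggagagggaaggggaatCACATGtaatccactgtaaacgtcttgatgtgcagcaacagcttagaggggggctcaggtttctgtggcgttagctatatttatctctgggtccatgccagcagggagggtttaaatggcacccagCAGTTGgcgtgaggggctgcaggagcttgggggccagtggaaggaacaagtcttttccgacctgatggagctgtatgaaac
The Chrna1 window held 3 E-boxes, beginning at bases -75, -56 and -27 from the start, and 2 of these were CAGCTG. At least 3 E-boxes were present in 16.6% of the 33469 rat promoters of the same length, and at least 2 copies of CAGCTG in 1.69%. The Myog window held 2 E-boxes, beginning at -157 and -31, neither of them CAGCTG, where 38.6% of promoters held at least 2 E-boxes. Among the other genes with a listed promoter, Cdkn1a had 2 E-boxes, Gadd45a 1 and Runx1 1, where 72.1% of promoters held at least 1. The E-box of Gadd45a was also CAGCTG, which at least once was present in 15.1% of promoters. These counts describe letters in a window and not sites of binding.

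With age under AL feeding, 6 of the 7 genes had higher mean levels, and Myod1 had a lower one. Chrna1, Gadd45a, Myog, Ncam1 and Cdkn1a were called higher, meaning that the adjusted p was 0.05 or less with a change of 1.5-fold or more. Of all genes tested, 1.88% were called higher and 1.52% lower, and their median log2 fold change was 0.01. The median of the 7 genes was 1.65. Runx1 (log2 fold change 1.19, adjusted p = 0.0670) and Myod1 (-0.88, adjusted p = 0.119) did not pass. Comparing aged CR with young AL rats, edgeR called no member, where 0.765% of genes were called higher and 1.22% lower. There 1 member, Gadd45a, had an unadjusted p under 0.05 (0.0132), as 19.3% of all genes did. DESeq2 called that gene when fitted to only these groups (adjusted p = 0.00598), where 2.63% of genes were called higher. It did not call that gene in a fit of all 18 libraries (adjusted p = 0.0630), where 1.62% of genes were called higher. Between the aged groups, Chrna1, Ncam1, Runx1 and Cdkn1a were called lower in CR rats than in rats fed AL, where 0.546% of genes were called lower and 0.833% higher. The median of the 7 genes there was -1.73, against -0.02 over all genes. Scaling to total counts changed the balance of calls over all genes, from 275 higher and 222 lower to 364 and 102 with age, and from 122 higher and 80 lower to 68 and 198 between the aged groups. It moved the median log2 fold change of all genes to 0.18 and -0.19, and no member changed direction in these comparisons. The comparisons share groups, so their values are not independent of each other.

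**Figure D1:**
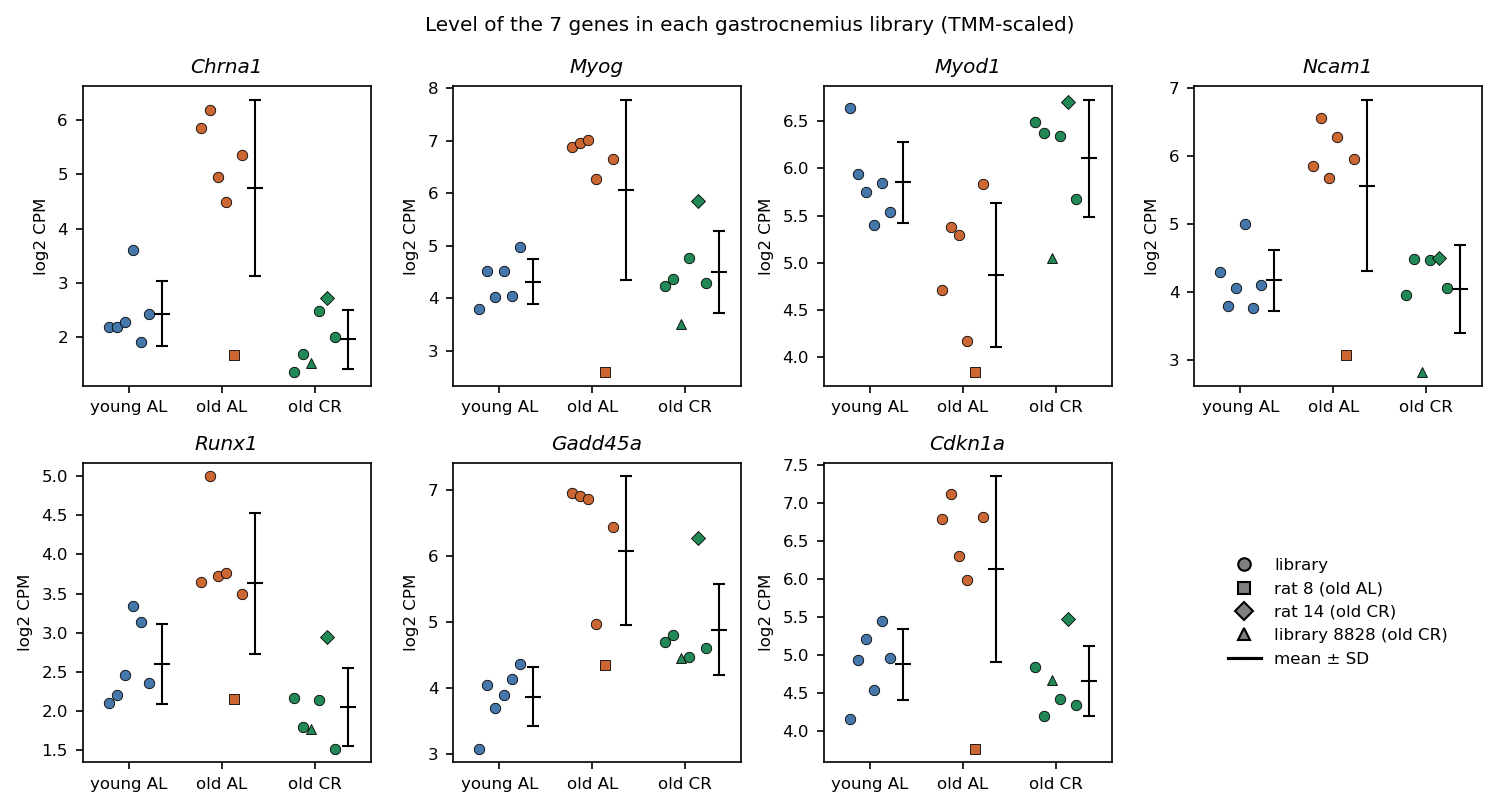
Log2 CPM (TMM-scaled, prior count 2) of each gene in each of the 18 libraries by group, with group mean and SD to the right of the points. In every panel the square, rat 8, is the lowest of the aged rats fed AL, and the diamond, rat 14, is the highest of the aged CR rats.

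**Figure D2:**
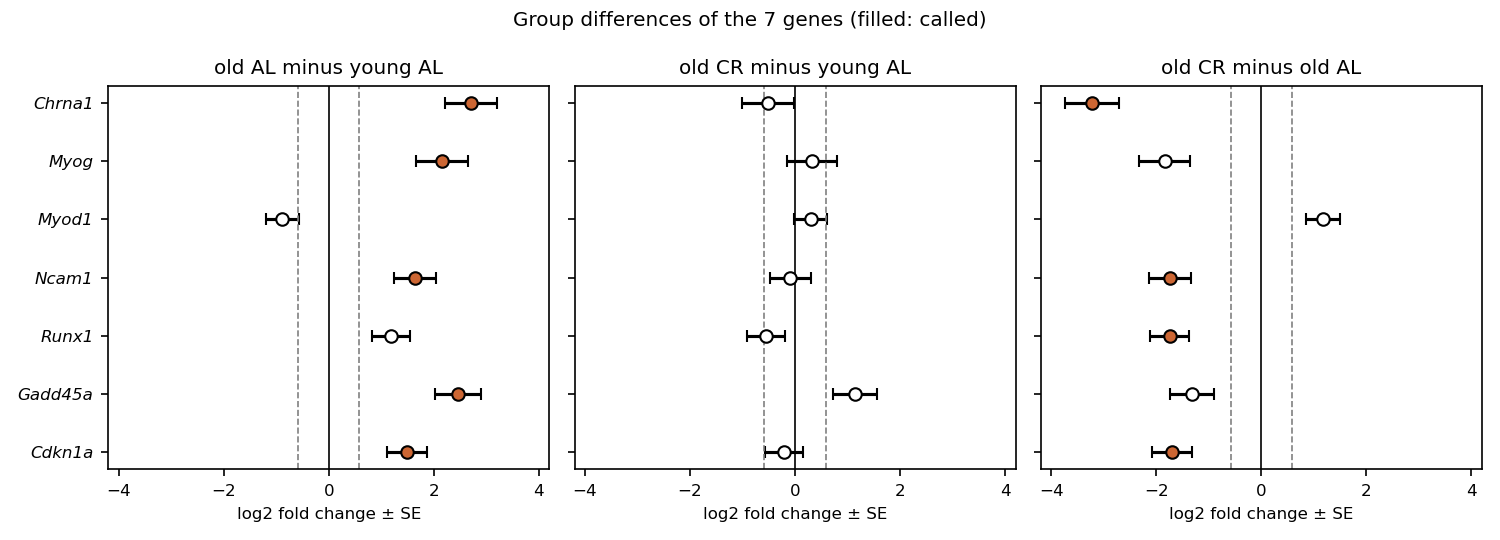
Log2 fold change with standard error for each gene in the 3 comparisons, filled where the gene was called, with dashed lines at a fold change of 1.5. The points lie to the right for 6 genes between aged and young rats fed AL, near 0 for most genes between aged CR and young rats, and to the left for 6 genes between the aged groups.

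Chrna1 (ENSRNOG00000018286, chromosome 3 from 60445666 to 60460724 of Rnor_6.0, minus strand, 9 exon blocks) encodes the alpha subunit of the muscle acetylcholine receptor, which binds the transmitter. In young rats fed AL it ranged from 3.68 to 12.0 CPM, with a median of 4.64. Among aged rats fed AL the lowest value was 3.11 CPM, in rat 8, the median 35.9 and the highest 72.9, in rat 11. In aged CR rats the values ran from 2.47 to 6.51 CPM with a median of 3.52. Thus 5 of the 6 aged rats fed AL lay above every young rat and above every aged CR rat, and rat 8 lay below every young rat. The group means were 5.79 ± 3.10, 37.9 ± 25.0 and 4.04 ± 1.62 CPM in young AL, aged AL and aged CR rats (SD, n = 6 each), and 44.9 ± 20.4 CPM in aged AL rats without rat 8 (SD, n = 5). Chrna1 was 6.54-fold higher in aged than in young rats fed AL (log2 fold change 2.71, standard error 0.50, adjusted p = 0.00662). Between the aged groups it was 9.38-fold higher in rats fed AL (log2 fold change of CR against AL -3.23, standard error 0.52, adjusted p = 0.00386). In that comparison only 4 of the 14646 genes tested had a lower log2 fold change. The difference between aged CR and young rats was not called (-0.52, standard error 0.49, adjusted p = 0.606). Both calls held in all 18 fits that each omitted 1 library, with adjusted p up to 0.0194 and 0.0150.

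Ncam1 (ENSRNOG00000031890, chromosome 8 from 53839098 to 53901358, minus strand) encodes a surface adhesion molecule that adult innervated fibres restrict to the synapse. Its values in young rats fed AL ran from 13.5 to 31.9 CPM (median 16.8). With age they ran from 8.25 CPM in rat 8 to 94.4 in rat 11 (median 59.9), and the 5 rats other than rat 8 had at least 51.2. Aged CR rats had 6.93 CPM in library 8828 and at most 22.5, with a median of 19.3. The 5 high aged rats fed AL did not overlap with either of the other groups. The difference from young rats was 3.13-fold (log2 1.65, standard error 0.40, adjusted p = 0.0259). For CR against AL in aged rats log2 was -1.73 (standard error 0.40, adjusted p = 0.0299). Against young rats, CR rats differed by -0.09 (standard error 0.39, adjusted p = 0.928). Both calls sat near the threshold. The age call was lost on leaving out rat 1, 3, 5, 6 or 9 (adjusted p from 0.0510 to 0.0620). The diet call was lost without rat 7, 9, 10, 11 or 15 or library 8826 or 8827 (0.0532 to 0.0797). The gene model spans 62261 bases in the deposited table and 300044 bases in RefSeq, so its level per length is uncertain, and so to a lesser extent is that of Cdkn1a (7407 against 10554 bases).

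Myog (ENSRNOG00000030743, chromosome 13 from 51126459 to 51129048, plus strand, 3 exon blocks) encodes myogenin. Young rats fed AL had 13.9 to 31.3 CPM, with a median of 19.7. Of the aged rats fed AL, rat 8 had 5.96 CPM, and rats 7, 9, 10, 11 and 12 had 77.0, 100.5, 118.1, 123.3 and 129.0. Aged CR rats ran from 11.3 CPM in library 8828 through a median of 20.0 to 57.4 in rat 14. The 5 aged rats fed AL other than rat 8 therefore lay above all libraries of both other groups, while rat 8 was the lowest of all 18. Myog was 4.46-fold higher in aged than in young rats fed AL (log2 2.16, standard error 0.49, adjusted p = 0.0201). Between the aged groups the log2 fold change was -1.84 (standard error 0.49, adjusted p = 0.0593), which did not pass. It passed without rat 8 (-2.08, adjusted p = 0.00130) or without rat 14 (-2.24, adjusted p = 0.0303), within a range of 0.00130 to 0.143 over all alternatives. The log2 fold change of aged CR against young rats was 0.32 (standard error 0.48, adjusted p = 0.762), and without rat 14 it was -0.0834.

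Myod1 (ENSRNOG00000011306, chromosome 1 from 102396538 to 102399248, plus strand, 3 exon blocks) encodes MyoD and was the only member with a lower mean in aged than in young rats fed AL. Its values were 42.1 to 99.4 CPM in young rats fed AL (median 55.6), 14.2 to 56.8 in aged rats fed AL (median 32.6) and 33.1 to 104.2 in aged CR rats (median 82.1). Of the aged rats fed AL, 5 lay below every young rat, and rat 9 at 56.8 CPM lay within the young range. The age difference did not pass the test, as given above, nor in any fit omitting 1 library (adjusted p from 0.0701 to 0.257). Aged CR rats had a higher mean than aged rats fed AL (log2 1.18, standard error 0.32, adjusted p = 0.0684), which passed without rat 9 (1.41, adjusted p = 0.0383) or without library 8828 (1.33, adjusted p = 0.0252). The range over all alternatives was 0.0127 to 0.156. The difference between aged CR and young rats was 0.30 (standard error 0.32, adjusted p = 0.655).

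Since a ratio of 2 genes within a library does not depend on how the library is scaled, Myog counts were also set against Myod1 counts, with 0.5 added to each. Myog was below Myod1 in all 6 young rats fed AL, with ratios from 0.140 to 0.673, and in all 6 aged CR rats, with ratios from 0.210 to 0.551. Aged rats 9, 11, 12, 7 and 10, fed AL, had ratios of 1.77, 2.97, 3.30, 4.31 and 4.51, and rat 8 had 0.420. Myog thus exceeded Myod1 in 5 aged rats fed AL and in no other library. The mean log2 ratio was 2.73 higher in aged than in young rats fed AL (two-sided exact permutation test, p = 0.00649, adjusted p = 0.00974 over 3 comparisons). Aged CR minus aged AL rats gave -2.80 on this scale (exact permutation p = 0.00433, adjusted p = 0.00974). The smallest p that 6 against 6 allow is 0.00216. Aged CR and young rats differed by -0.07 (exact permutation p = 0.855). Leaving out rat 8 widened the first difference to 3.21 and the second to -3.29. A ratio to Myod1 also moves with Myod1 itself, whose log2 fold changes of -0.88 with age and 1.18 for CR against AL did not pass the test (adjusted p = 0.119 and 0.0684). With age, 97.7% of all genes had a higher log2 fold change than Myod1. For Gadd45a and Cdkn1a the ratios of all 6 aged rats fed AL, rat 8 included, lay above those of all 6 young rats, as 5.74% of all genes did relative to Myod1. For Chrna1, Ncam1, Runx1, Gadd45a and Cdkn1a the ratios of all 6 aged CR rats lay below those of all 6 aged rats fed AL, as 3.99% of genes did. These 5 ratios share Myod1 as their denominator and were examined after the data were seen, so they were not tested.

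**Figure D3:**
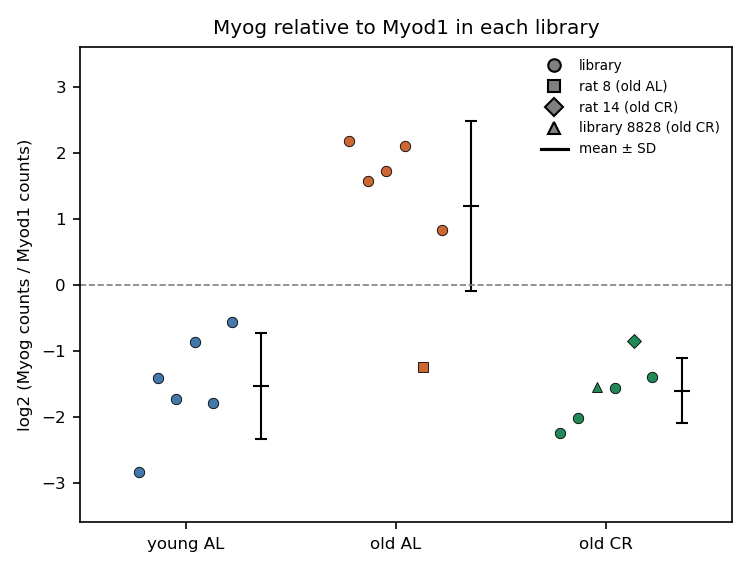
Log2 ratio of Myog to Myod1 counts in each library by group, with group mean and SD and a dashed line where the counts are equal. The 5 points above the line are aged rats fed AL, and rat 8, the square, sits at -1.25 among the young and CR rats.

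Runx1 (ENSRNOG00000001704, chromosome 11 from 32769165 to 33003021, minus strand, 8 exon blocks) encodes a transcription factor known to limit wasting of denervated fibres. It was the scarcest of the 7 genes by counts per length, with at least 56 counts in every library. Young rats fed AL had 4.21 to 10.0 CPM (median 5.21), aged rats fed AL 4.36 to 31.9 (median 12.8) and aged CR rats 2.77 to 7.58 (median 3.84). Again 5 of the 6 aged rats fed AL lay above every young rat. Of the CR rats, 4 lay below rat 8 by TMM-scaled CPM. The comparison of CR with AL in aged rats gave -1.75 on the log2 scale (standard error 0.37, adjusted p = 0.0208), a call lost without library 8826 or 8827 (adjusted p 0.0553 and 0.0551). The 2.28-fold difference with age did not pass. Of the fits omitting 1 library, that without rat 8 passed (log2 1.38, adjusted p = 0.0149, with a range of 0.0125 to 0.146 over all alternatives), and that without rat 11 gave the smallest difference (0.78, adjusted p = 0.146). Aged CR and young rats differed by -0.56 (standard error 0.36, adjusted p = 0.420).

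Gadd45a (ENSRNOG00000005615, chromosome 4 from 97782512 to 97784842, minus strand, 4 exon blocks) encodes a small stress protein that binds cell cycle and chromatin regulators. Its values were 8.38 to 20.6 CPM in young rats fed AL (median 15.6). In the aged AL group they were 20.4 in rat 8, 31.2 in rat 7, 86.9 in rat 9 and 116.8 to 124.0 in rats 12, 11 and 10. The place of rat 8 within the young range depended on the scaling. By TPM it had 40.6, against at most 26.8 in young rats. Aged CR rats had 21.9 to 27.9 CPM in 5 libraries and 77.4 in rat 14. It was the only member for which all 6 aged CR rats lay above all 6 young rats, which held for 1.65% of genes tested. That difference was 2.20-fold (log2 1.14, standard error 0.42, adjusted p = 0.146) and was not called, and without rat 14 the log2 value was 0.70 (adjusted p = 0.329). Gadd45a was 5.51-fold higher in aged than in young rats fed AL (log2 2.46, standard error 0.43, adjusted p = 0.00472). This call held in all 18 fits omitting 1 library, with adjusted p up to 0.0145. Between the aged groups the log2 fold change was -1.32 (standard error 0.41, adjusted p = 0.106), and it passed without rat 8 (-1.53, adjusted p = 0.0221) or rat 14 (-1.76, adjusted p = 0.0298), within 0.0221 to 0.226 over all alternatives.

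Cdkn1a (ENSRNOG00000000521, chromosome 20 from 6351458 to 6358864, plus strand, 3 exon blocks) encodes p21, an inhibitor of cyclin-dependent kinases that p53 induces. Young rats fed AL had 17.8 to 43.6 CPM (median 30.9). By TMM-scaled CPM rat 8 had 13.6, the lowest of all libraries, and the other 5 aged rats fed AL had 63.5 to 138.6. By TPM rat 8 (17.1) was not the lowest, with young rat 1 at 15.9 and library 8827 at 13.5. Aged CR rats had 18.3 to 44.3 CPM (median 23.4) and overlapped with young rats over nearly their whole range. The difference from young rats was 2.82-fold in aged rats fed AL (adjusted p = 0.0312, with a standard error of 0.38 on the log2 scale). The log2 fold change of CR against AL in aged rats was -1.71 (standard error 0.38, adjusted p = 0.0264), and that of aged CR against young rats was -0.21 (standard error 0.37, adjusted p = 0.803). The age call was lost without rat 1, 3, 4, 6, 9, 10 or 11 (adjusted p from 0.0505 to 0.0678). The diet call was lost without rat 9, 10, 11, 13 or 15 or library 8826 or 8827 (0.0532 to 0.0713).

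Rat 8 was the lowest aged rat fed AL in all 7 genes by TMM-scaled CPM, and in 6 of 7 by CPM of total counts. Without it, 6 members were called higher in aged than in young rats fed AL, where 2.16% of genes were. For each of these 6 genes the 5 remaining aged rats fed AL lay above all young rats, as 2.22% of genes did. These 6 genes were also called lower in aged CR than in aged AL rats, where 1.18% of genes were. For Chrna1, Myog, Ncam1, Runx1 and Cdkn1a all CR libraries then lay below all AL libraries, as 2.43% of genes did. Myod1 was called in neither comparison. Standard errors were smaller without rat 8, for Myog 0.32 against 0.49 in the age comparison. With rat 8 and library 8828 both left out, 6 members were called higher with age (2.6% of genes) and 6 lower under CR (1.47% of genes). Myod1 was then called higher in aged CR rats (log2 1.17, adjusted p = 0.0207), as 1.79% of genes were. The part of rat 8's divergent profile in its low values was not tested. Among aged CR rats, rat 14 had the highest TMM-scaled value of all 7 genes and library 8828 the lowest of 4.

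**Figure D4:**
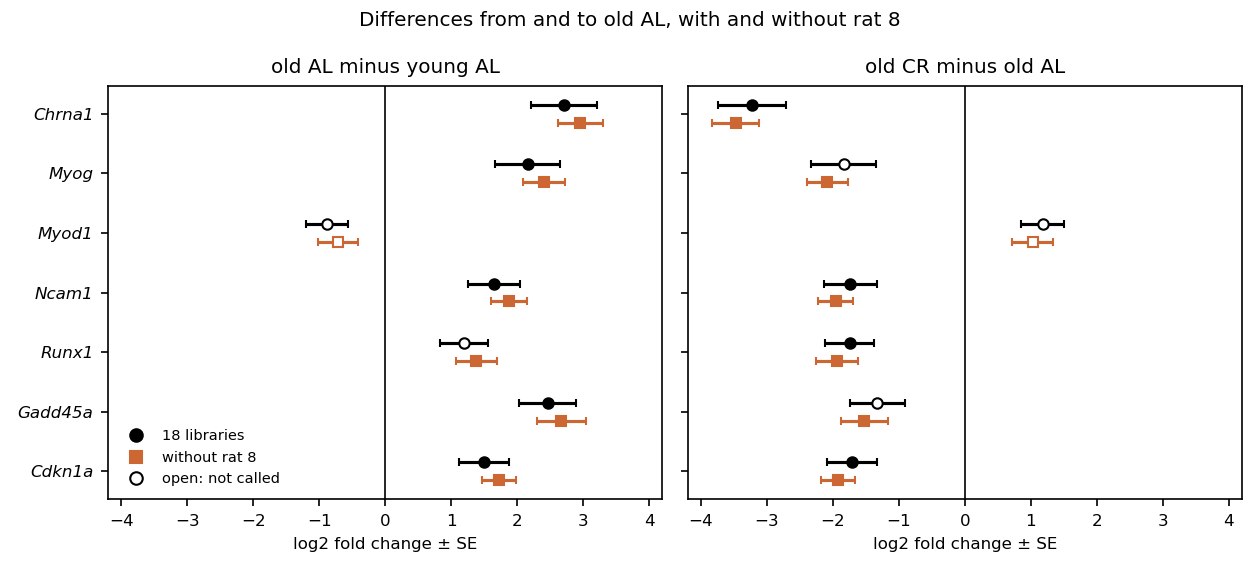
Log2 fold change with standard error for each gene in the comparisons of aged with young rats fed AL and of aged CR with aged AL rats, from all 18 libraries (circles) and without rat 8 (squares), open where not called. All 7 genes keep their direction without rat 8, and Runx1 in the first panel and Myog and Gadd45a in the second become called.

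Levels of different genes were compared as FPKM, which is CPM per kilobase of gene length, from the gene lengths in the table. Taken as TPM, mean levels were higher in every group, and 19 moved by their SD or more. Gadd45a in aged rats fed AL, for example, had 113.2 TPM against 67.2 FPKM. The order of the means within each group was the same on both scales. In young rats fed AL, Myod1 was highest at 30.8 ± 10.5 FPKM, followed by Cdkn1a at 15.7 ± 4.75, Myog at 14.3 ± 4.44 and Gadd45a at 12.2 ± 3.37 (SD, n = 6), and then by Ncam1 (4.23 ± 1.55), Chrna1 (3.14 ± 1.69) and Runx1 (2.79 ± 1.07). As the genes were measured in the same libraries, neighbours in the order were compared within each library, without a test. Myod1 exceeded Cdkn1a, Gadd45a exceeded Ncam1 and Ncam1 exceeded Chrna1 in all 6 young libraries. Cdkn1a exceeded Myog in 2 of 6, Myog exceeded Gadd45a in 5 and Chrna1 exceeded Runx1 in 5. With age under AL feeding the order changed, with Gadd45a at 67.2 ± 37.5, Myog at 63.7 ± 32.0 and Cdkn1a at 44.2 ± 22.8 FPKM above Chrna1 at 20.6 ± 13.6 and Myod1 at 16.7 ± 8.29. Ncam1 (13.2 ± 6.58) and Runx1 (6.35 ± 4.06) came last. Cdkn1a exceeded Chrna1 in all 6 of these libraries, by 23.6 ± 10.5 FPKM, while Chrna1 exceeded Myod1 in 3 and Myod1 exceeded Ncam1 in 4. The other neighbours kept their order in 5 of 6. Without rat 8 (SD, n = 5) the order of the means was the same, with Gadd45a at 77.3 ± 31.5, Myog at 75.7 ± 14.6, Cdkn1a at 51.7 ± 15.2, Chrna1 at 24.4 ± 11.1, Myod1 at 18.6 ± 7.69, Ncam1 at 15.5 ± 3.93 and Runx1 at 7.24 ± 3.84 FPKM. In aged CR rats Myod1 was again highest at 37.9 ± 13.6 FPKM, followed by Gadd45a at 26.8 ± 17.5, Myog at 17.8 ± 11.2 and Cdkn1a at 13.5 ± 4.90, and Ncam1, Chrna1 and Runx1 were at 3.98 ± 1.37, 2.20 ± 0.877 and 1.89 ± 0.764. There Cdkn1a exceeded Ncam1 and Ncam1 exceeded Chrna1 in all 6 libraries, and the other neighbours kept their order in 4 or 5.

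Likeness of pattern was measured by Pearson's r of log2 CPM over the 18 libraries, which share their groups, depth and scaling, and is given without a test. The gene most like Chrna1 among all 14646 tested was Ncam1 (r = 0.921, Spearman's rho 0.876), followed by ENSRNOG00000016368 (r = 0.917), and Myog was the fourth (r = 0.899). For Runx1 the first was ENSRNOG00000001765 (r = 0.895) and the second Chrna1 (r = 0.890). The genes most like the other members are known here only by identifier, since the files give no symbols. They were ENSRNOG00000033567 and ENSRNOG00000014119 for Myog (r = 0.930 and 0.923) and ENSRNOG00000019752 and ENSRNOG00000019527 for Ncam1 (0.946 and 0.938). For Gadd45a they were ENSRNOG00000042634 and ENSRNOG00000048682 (0.950 and 0.942), and for Cdkn1a ENSRNOG00000018371 and ENSRNOG00000016368 (0.927 and 0.918). Myod1 had negative values with all 6 other members, from -0.329 to -0.0694. The genes most like it were ENSRNOG00000000851 and ENSRNOG00000033639 (r = 0.936 and 0.925). After group means were removed, Myod1 had positive values with the other 6, from 0.387 to 0.569, and Chrna1 with Myog had 0.890. These values are over all 18 libraries, and whether their sign rests on rat 8 or library 8828 was not tested. Without rat 8 and library 8828, and with group means kept, r was 0.915 for Chrna1 with Myog and 0.942 for Chrna1 with Ncam1. In that setting the values of Myod1 with the other members ran from -0.653 to -0.328.

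**Figure D5:**
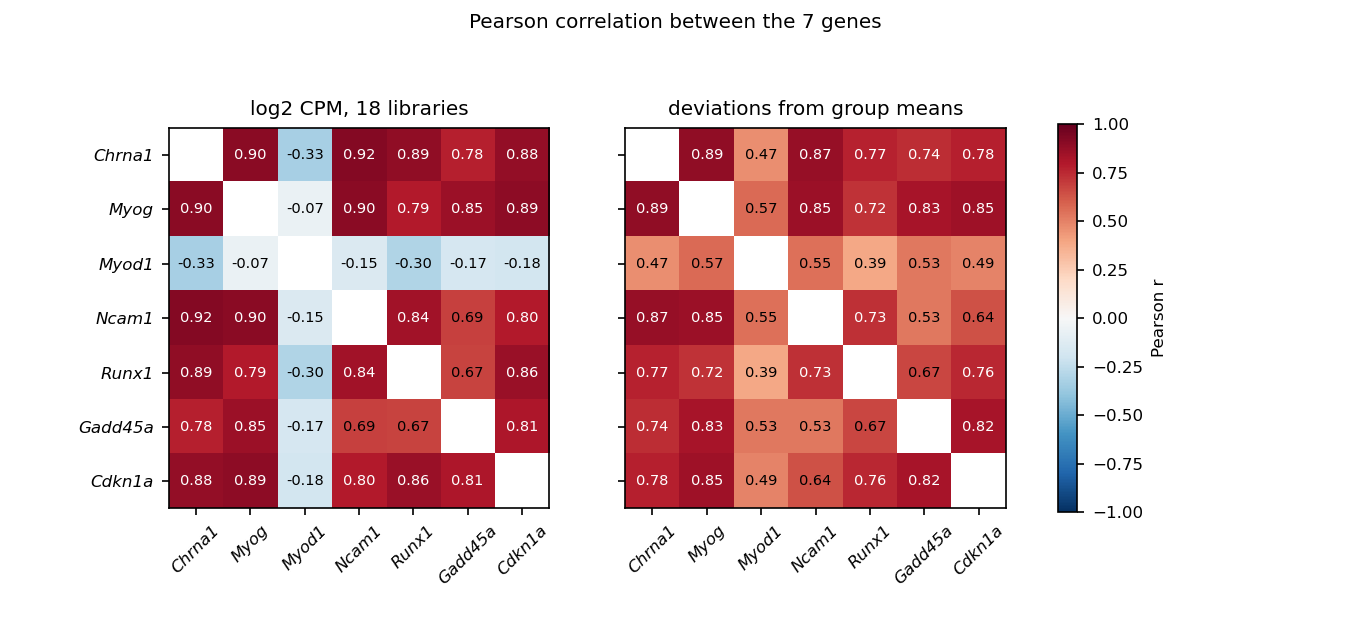
Pearson's r between each pair of the 7 genes over the 18 libraries, on log2 CPM (left) and on deviations from group means (right). The Myod1 row is negative on the left and positive on the right, while all other pairs are positive in both panels.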

How the data were processed

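RNA-seq libraries of 18 gastrocnemius samples were analysed. The authors depleted ribosomal RNA, used a strand-specific kit, trimmed with cutadapt 1.2.1 and aligned with STAR 2.3.0e. The deposited values are raw counts per gene, made by the authors with featureCounts 1.6.4 on release 96 of the Rnor_6.0 annotation. The command in the file header sets no strand option, so counting was unstranded. No other gene of the table shares exon bases with the 7 genes. The table also gives each gene's length.

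Groups came from the sample labels. In 3 aged CR columns the sample and library numbers belong to different rats of that group, so these libraries have no rat number. Sample number 15 stands on both library 8825, called rat 15 here, and library 8826, and number 18 on none. Counts of these 2 libraries differed by a chi-square of 121.6 per degree of freedom. Within groups, no 2 libraries agreed within sampling noise (chi-square per degree of freedom at least 18.0 over 45 pairs). All 18 columns of counts were used.

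Genes passing filterByExpr were tested in R 4.3.3 with edgeR 4.0.16 (TMM scaling, quasi-likelihood test, 1 fit of all 18 libraries, Benjamini-Hochberg adjustment over all genes). The thresholds for a call, adjusted p 0.05 and 1.5-fold, follow the study's methods. A standard error is the size of the log2 change over the root of F. Ratios were compared by exact permutation in SciPy 1.17.1. The fit was first tested on simulated counts. Between aged CR and young rats, 66.8% of the 199 genes simulated with a change were called, at a median log2 change of 1.00 in size. A true difference of that size can thus go uncalled. Alternatives were DESeq2 1.42.0, other scalings, filters and thresholds, fits of only the groups compared, and leaving out each library. The members and lists were chosen with earlier results of these data known. Every member is named, with the 2 genes most like each. The pathway and cell type marker lists were not analysed here, since no table pairs these identifiers with symbols. The members' symbols come with the selection rule. RefSeq (GRCr8) has the same chromosome for all 7. The labels number 18 separate rats, and that the 6 aged CR columns are 6 rats rests on those labels. The lowest count of a member in any library was 50.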

Additional observations from a re-analysis of the deposited data

Results flagged for a closer look

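Dixon's ratio, the distance of an extreme library from its neighbour divided by the spread from lowest to highest, was computed in each group of 6 for log2 CPM of the 7 genes and for the log2 ratio of Myog to Myod1. It exceeded the critical value of 0.625 in 6 of 24 sets of values, and chance alone exceeds it in about 1 in 20, or 1.2 of 24. The genes share libraries, so these are not independent. Rat 8 was apart at the low end of the aged rats fed AL for Myog (ratio 0.832), Ncam1 (0.748) and Cdkn1a (0.664). Library 8828 was apart at the low end of the aged CR rats for Ncam1 (0.674). Rat 14 was apart at the high end of the aged CR rats for Gadd45a (0.809), and rat 4 at the high end of the young rats for Chrna1 (0.698).

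The change from young rats differed between the aged groups, by the direct comparison of CR with AL, for Chrna1 (log2 -3.23), Ncam1 (-1.73), Runx1 (-1.75) and Cdkn1a (-1.71), and for the log2 ratio of Myog to Myod1 (-2.80). Both changes use the same young rats, which cancel in this difference.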

How the results depend on the processing

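No paired analysis was possible because the labels number the rats 1 to 18 across the groups, so no replicate number occurs in more than 1 group. Over 30 alternatives each, Chrna1 kept both calls and Gadd45a its call with age. Beside counts of members, percentages give the share of all genes with an adjusted p that were called in that direction. Members called higher with age numbered 5 (1.88%) and became 2 at an adjusted p of 0.01 (0.403%). They numbered 3 in edgeR fits of only the groups compared (1.03%), and 3 to 6 on leaving out 1 library (1.06% to 2.75%). They became 6, with Runx1, by DESeq2 with all libraries (3.03%) or only these groups (2.66%), with total counts (2.49%), and without rat 8 and library 8828 (2.6%). Members called lower in aged CR than in aged AL rats numbered 4 (0.546%) and became 1 at an adjusted p of 0.01 (0.116%). They numbered 1 in edgeR fits of only these groups (0.346%), and 1 to 6 on leaving out 1 library (0.202% to 1.18%). They became 6, with Myog and Gadd45a, by DESeq2 with all libraries (1.21%), with total counts (1.35%), and without rat 8 and library 8828 (1.47%), and 5 by DESeq2 with only these groups (1.31%) and with 10 counts in every library (0.777%). In that comparison 1 member, Myod1, against 0, was called higher by DESeq2 with all libraries (1.53%) or only these groups (1.56%). It was also called higher with total counts (0.464%), and without rat 8 and library 8828 (1.79%). On leaving out 1 library, 0 to 1 members were called higher (0.262% to 1.43%), with Myod1 called without rat 9 (0.613%) or library 8828 (1.33%). Between aged CR and young rats 1 member, Gadd45a, against 0, was called higher by DESeq2 with only these groups (2.63%). Upper-quartile scaling gave 330 genes higher and 173 lower with age, against 275 and 222, and 165 and 149 between aged CR and young rats, against 112 and 178.

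Over all genes the age comparison under AL feeding gave 497 calls, against 985 by DESeq2, 849 by DESeq2 and 258 by edgeR with only these groups, 330 with 10 counts in every library and 124 at an adjusted p of 0.01, and 288 to 678 on leaving out 1 library. Between aged CR and young rats 290 became 706, 952, 441 and, at 0.01, 107, with 455 without rat 8 and library 8828 and 185 to 578 on leaving out 1 library. Between the aged groups 202 became 434, 429, 130 and, at 0.01, 44, with 129 without the filter on low counts, 477 without rat 8 and library 8828 and 69 to 385 on leaving out 1 library. The causes were not tested.

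Changes of sign occurred between aged CR and young rats, in values not called. Leaving out 1 library, Myog ran from -0.0834 (without rat 14) to 0.474, Ncam1 from -0.170 to 0.130 and the log2 ratio of Myog to Myod1 from -0.332 to 0.121, and Ncam1 was 0.0851 without rat 8 and library 8828.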
